A study of Homo sapiens with 3 samples.

Results

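The respiratory chain genes encoded in the nucleus were taken from an Affymetrix HG-U133 Plus 2.0 array as the probe sets whose single listed gene is a subunit of complexes I to V. These were the genes named NDUFA, NDUFB, NDUFC, NDUFS or NDUFV with a number, NDUFAB1, SDHA to SDHD, CYC1, and those whose names start with UQCR, COX4I, COX5, COX6, COX7, COX8 or ATP5. The rule used names only and no measured value. It took in 154 of the 54675 probe sets of the array, for 80 of the 19775 genes that have a probe set of their own, and 12 further probe sets that are also listed for other genes were kept apart. Total RNA came from 3 cultures of untreated HEK-293T cells, derived from human embryonic kidney and carrying the SV40 T-antigen (in the labels, an inserted temperature sensitive gene for it). All cultures were grown in DMEM with 10% FBS. One culture was seeded at 375000 cells and harvested at 48 h (the low-seeded 48 h culture), 1 at 1000000 cells and harvested at 24 h (the 24 h culture), and 1 at 750000 cells and harvested at 48 h (the high-seeded 48 h culture). Harvest time and seeding therefore cannot be told apart, and no source used here says whether the 3 cultures came from separate passages.

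The respiratory chain sits in the inner mitochondrial membrane. Complexes I (NADH dehydrogenase) and II (succinate dehydrogenase) pass electrons to ubiquinone, complex III hands them to cytochrome c, and complex IV (cytochrome c oxidase) passes them to oxygen. Complexes I, III and IV pump protons, and complex V, the ATP synthase, uses the proton gradient to make ATP. Most subunits are encoded in the nucleus and imported, while a small set of hydrophobic core subunits is made inside the organelle from mitochondrial DNA. Several subunits of cytochrome c oxidase exist as a ubiquitous form and as a form restricted to heart and skeletal muscle, testis or lung. NRF1, the ETS factor GABPA and YY1 are known regulators of many of the nuclear genes.

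To show ubiquitous genes beside tissue isoforms at the level of sequence, 6 promoters from the RefSeq annotation (GRCh38.p14) are given, each with 250 bases before and 50 bases after the transcription start, read in the direction of transcription. They are a muscle pair (COX6A1 and COX6A2, subunit 6A), a testis pair (COX8A and COX8C, subunit 8), SDHD, a membrane anchor of complex II, and ATP5PF, a peripheral stalk subunit of the ATP synthase, the last pair being picked after the search because they hold several motifs. Capitals mark, on either strand, the letters CGCATGCG (the core of the NRF1 site, the same on both strands), CCGGAAG (an ETS site read by GABPA) and AAGATGGC (YY1).
COX6A1, chr12:120437863-120438162, plus strand: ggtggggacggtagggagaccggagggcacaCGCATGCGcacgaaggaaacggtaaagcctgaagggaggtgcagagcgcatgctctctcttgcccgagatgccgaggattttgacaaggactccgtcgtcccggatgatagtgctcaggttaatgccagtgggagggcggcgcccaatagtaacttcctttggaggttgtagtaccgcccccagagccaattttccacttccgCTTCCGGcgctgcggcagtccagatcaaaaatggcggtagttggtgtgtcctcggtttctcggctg
COX6A2, chr16:31428311-31428610, minus strand: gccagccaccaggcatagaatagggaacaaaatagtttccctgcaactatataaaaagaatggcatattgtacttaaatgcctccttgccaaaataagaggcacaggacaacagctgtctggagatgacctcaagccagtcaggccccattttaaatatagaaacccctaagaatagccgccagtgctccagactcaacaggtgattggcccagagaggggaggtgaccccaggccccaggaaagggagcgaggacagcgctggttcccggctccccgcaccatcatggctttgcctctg
COX8A, chr11:63974370-63974669, plus strand: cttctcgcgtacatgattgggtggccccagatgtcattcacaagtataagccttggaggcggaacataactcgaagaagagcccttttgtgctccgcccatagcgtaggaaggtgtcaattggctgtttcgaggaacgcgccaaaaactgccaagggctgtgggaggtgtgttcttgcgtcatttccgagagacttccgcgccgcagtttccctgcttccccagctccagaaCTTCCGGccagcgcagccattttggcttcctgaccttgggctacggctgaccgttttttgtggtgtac
COX8C, chr14:93346932-93347231, plus strand: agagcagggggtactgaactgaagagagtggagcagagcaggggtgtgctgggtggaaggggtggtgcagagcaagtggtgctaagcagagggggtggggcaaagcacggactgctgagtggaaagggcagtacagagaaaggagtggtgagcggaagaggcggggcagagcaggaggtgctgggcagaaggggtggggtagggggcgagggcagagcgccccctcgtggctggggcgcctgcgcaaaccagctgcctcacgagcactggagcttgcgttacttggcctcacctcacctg
SDHD, chr11:112086623-112086922, plus strand: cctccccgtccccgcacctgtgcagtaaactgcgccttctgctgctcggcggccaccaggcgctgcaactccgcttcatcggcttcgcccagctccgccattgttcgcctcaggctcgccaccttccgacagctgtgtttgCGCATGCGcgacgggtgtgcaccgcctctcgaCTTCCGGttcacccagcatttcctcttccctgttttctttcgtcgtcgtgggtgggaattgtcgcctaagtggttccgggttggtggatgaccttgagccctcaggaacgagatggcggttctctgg
ATP5PF, chr21:25735005-25735304, minus strand: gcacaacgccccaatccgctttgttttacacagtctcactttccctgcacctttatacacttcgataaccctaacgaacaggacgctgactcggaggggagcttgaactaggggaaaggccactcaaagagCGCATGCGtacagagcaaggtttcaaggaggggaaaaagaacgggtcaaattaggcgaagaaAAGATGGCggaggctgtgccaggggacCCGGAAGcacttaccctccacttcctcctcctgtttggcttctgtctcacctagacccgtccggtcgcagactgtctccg

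In these windows the ETS letters lie close to the start of all 4 ubiquitous genes, beginning 16 bases before the start of COX6A1, 18 before that of COX8A, 77 before that of SDHD and 30 before that of ATP5PF. The NRF1 core begins 219 bases before the start of COX6A1, 109 before that of SDHD and 119 before that of ATP5PF. ATP5PF alone of the 6 windows also holds the YY1 letters, beginning 57 bases before the start. ATP5PF has another RefSeq window, chr21:25734855-25735154, for a start further downstream. That window holds the ETS and YY1 letters but not the NRF1 core. The distances given for ATP5PF therefore hold only for the window shown. The windows of COX6A2 and COX8C hold none of the 3 motifs. CpG dinucleotides numbered 22 at COX6A1 against 5 at COX6A2, and 18 at COX8A against 10 at COX8C. The other pairs in the table were not all alike, since COX6B1 had 16 CpG against 31 at COX6B2, and COX7B had 14 against 8 at COX7B2 but, like COX7B2, none of the motifs.

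The same search was made for all member genes that the RefSeq promoter table lists, which were 66 of 80 (62 ubiquitous genes with 75 windows, and the isoforms COX6A2, COX6B2, COX7B2 and COX8C). At least 1 of the 3 motifs was found for 35 of the 62 ubiquitous genes (56.5%). Over all 15842 protein-coding genes of the table the share was 22.3%, and over the 8210 of these that were above background in the HEK-293T arrays it was 32.8%. The NRF1 core was found for 11 ubiquitous members (17.7%), against 3.28% of all protein-coding genes and 4.98% of those above background. The YY1 letters were also found for 11 (17.7%), against 4.66% and 7.26%. For the ETS letters the shares lay closer together, at 30.6% of the ubiquitous members, 16.5% of all and 24.3% of those above background. None of the 4 isoform windows held a motif. Only 1 member window held matches that overlap each other. These are counts of letters in fixed windows, given without a test, and a match is not a measured binding site.

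By complex, at least 1 motif was found for 16 of 31 genes of complex I, 1 of 2 of complex II, 3 of 5 of complex III, 5 of 10 of complex IV and 10 of 14 of complex V. The YY1 letters were found for 7 genes of complex I, 1 of complex III, 3 of complex V and 0 of complex IV. The ETS letters were found for 5 of the 10 ubiquitous genes of complex IV, among them COX4I1, COX5B and COX6B1. The NRF1 core was found for the complex I genes NDUFA5, NDUFA8, NDUFB4, NDUFS6 and NDUFS7, and in complex V for ATP5F1C, ATP5MC2, ATP5ME and ATP5PF.

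**Figure D1:**
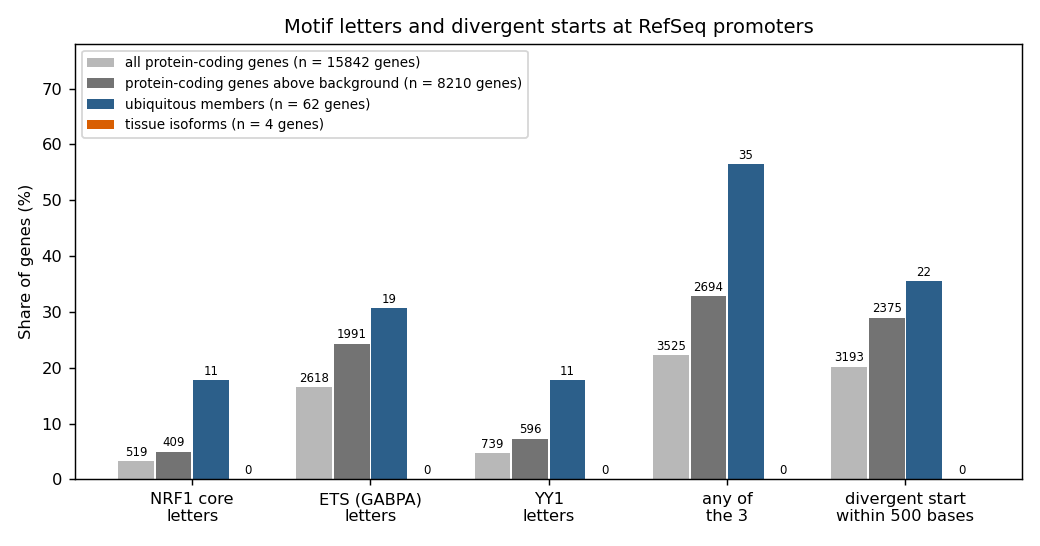
Share of genes (%, vertical axis from 0) with each motif in a RefSeq promoter window of 300 bases, or with a divergent start, for all protein-coding genes, those above background in HEK-293T, the 62 ubiquitous members and the 4 tissue isoforms. Numbers above the bars count genes. The members' bar is the highest for each motif, by the smallest margin over expressed genes for the ETS letters (30.6% against 24.3%), and the isoforms stand at 0.

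The ratio of observed to expected CpG had a median of 0.84 over the ubiquitous windows, 0.83 over protein-coding genes above background and 0.74 over all protein-coding genes, so that in CpG content the members did not stand above other expressed genes. The isoforms lay at 0.25 (COX6A2), 0.38 (COX8C), 0.52 (COX7B2) and 0.80 (COX6B2). A gene on the opposite strand started within 500 bases for 22 of the 62 ubiquitous members (35.5%), against 28.9% of protein-coding genes above background and 20.2% of all. Among these pairs were ATP5PF with GABPA, the gene of the ETS factor named above, at 68 bases, UQCRQ with GDF9 at 63, NDUFA7 with RPS28 at 121 and NDUFS1 with EEF1B2 at 165. None of the 4 isoforms had such a neighbour.

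On the arrays, a MAS5 signal is an intensity without a unit, scaled so that the trimmed mean of each array is about 500.1, and the signals of different probe sets cannot be set against each other. A probe set therefore counted as above background only if on every array it exceeded the 95th percentile of 333 reference probe sets. Their genes were chosen as genes of tissues other than kidney, muscle and testis. Of these probe sets, 127 are for olfactory or bitter taste receptors, taken by gene name alone, and their signal in testis was not checked. Values of the 3 arrays are given throughout in the order low-seeded 48 h, 24 h and high-seeded 48 h, and in this order the threshold was 104.0, 88.6 and 123.0. Of the 154 member probe sets, 117 were above background (76.0%), where 37.9% of all probe sets were. By gene, 71 of 80 had at least 1 probe set above background (88.8%), where the share over all genes was 51.1%. Every gene of the ubiquitous class was above background except ATP5MF, and none of the 6 tissue isoforms and neither of the 2 pseudogenes was. Of 7 marker genes of HEK-293 cells 6 were above background (not PAX2), and of 5 measured markers of mature kidney 0 were, so the labelled tissue is not seen in markers of the differentiated organ.

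**Figure D2:**
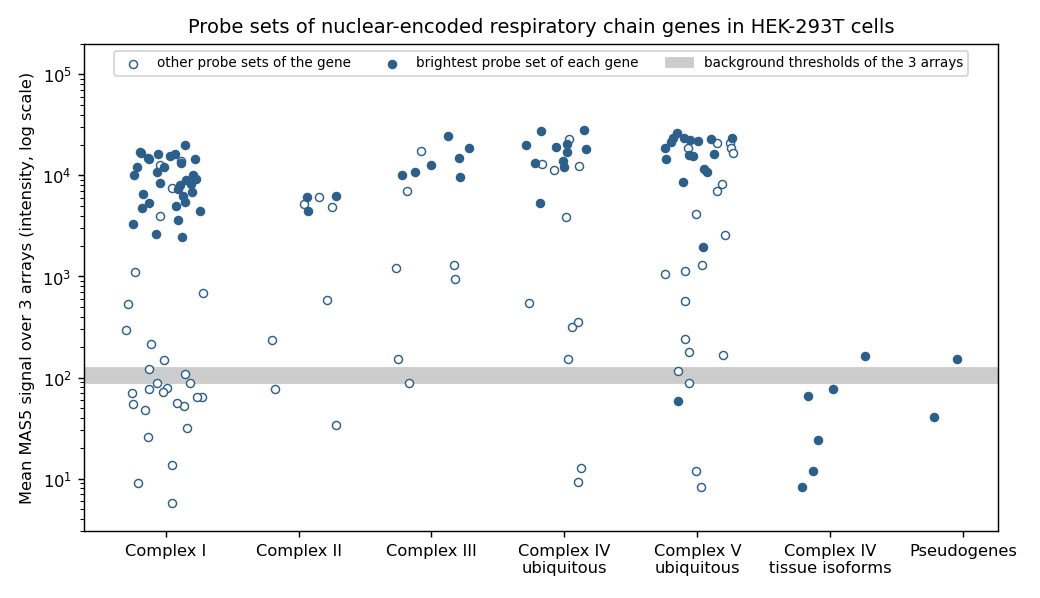
Mean MAS5 signal over the 3 arrays (vertical log axis) of each of the 154 member probe sets, by complex and class. Filled points are the brightest probe set of each gene, open points its other probe sets, and the grey band spans the thresholds of the 3 arrays (88.6 to 123.0). The brightest probe sets of the ubiquitous genes lie far above the band except that of ATP5MF, while the tissue isoforms and pseudogenes lie in, near or below it.

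Complex I was represented by 33 genes, all above background. Its measured catalytic core, which carries the flavin and iron-sulphur clusters, comprised NDUFS1, NDUFS3, NDUFS7, NDUFV1 and NDUFV2. NDUFV1, which binds NADH and the flavin, gave 6700, 6891 and 6842. NDUFS1, the largest core subunit, gave 3211, 3445 and 3331, and NDUFS3 gave 9568, 8896 and 8904. These values differ by a few percent between cultures, with an SD over arrays of 0.02 for NDUFV1, 0.05 for NDUFS1 and 0.06 for NDUFS3 on the log2 scale. Among the 28 accessory genes was NDUFAB1, the mitochondrial acyl carrier protein, at 19960 ± 963 (SD, n = 3 arrays). NDUFA12, an accessory subunit bound late in assembly, gave 16517, 16386 and 16376, the smallest spread of all members above background (SD 0.01 on the log2 scale).

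All 3 measured genes of complex II were above background. SDHA, the flavoprotein that oxidises succinate, gave 4600, 4226 and 4492. Its probe set is of the kind that can share sequence with other transcripts, and SDHA has transcribed pseudogenes. The membrane anchor SDHD gave 6245, 6615 and 5970. SDHC, the other anchor, has 7 probe sets, of which 6 were above background, with mean signals from 235.2 to 6135. The exception gave 81.3, 89.0 and 63.3. The bright SDHC probe sets, with means from 4906 to 6135, are all of the kind that can share sequence. The others above background are not, and had means of 580.3 and 235.2. Complex II is the 1 complex with no subunit encoded in mitochondrial DNA.

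In complex III all 7 genes were above background. CYC1, cytochrome c1, which hands electrons to cytochrome c, gave 11381, 10063 and 10919. The core proteins UQCRC1 and UQCRC2 are related to mitochondrial processing peptidases. UQCRC1 gave 9748, 9281 and 10048, and the brightest probe set of UQCRC2 gave 12598, 11959 and 13092. Another UQCRC2 probe set above background gave 6721, 7756 and 6669. Its log2 difference (24 h minus 48 h) was 0.21, against -0.10 for the brightest. UQCRQ, a small accessory subunit, stood apart from these. It gave 16652 and 16510 but only 11290 for the high-seeded 48 h culture, a range of 0.56 on the log2 scale that separates the 48 h cultures from each other rather than 24 h from 48 h. UQCRQ has 1 probe set, so the difference has no second measurement within the gene.

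Cytochrome c oxidase was represented by 11 ubiquitous genes, all above background, and by the tissue isoforms. COX4I1, which takes part in the regulation of the enzyme by ATP, gave 19528, 18413 and 19204 for its brightest probe set. COX5A and COX5B, which have no tissue isoform among these genes, gave 17747, 17938 and 19070, and 14368, 13314 and 13702. COX7A2L, a relative of COX7A2 that joins complexes III and IV into supercomplexes, was among the steadiest members, at 5218, 5357 and 5286 (SD 0.02 on the log2 scale).

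The isoforms formed 6 pairs with these genes. COX4I2, the form of subunit 4 known from lung and responsive to low oxygen, gave 160.4, 240.9 and 93.3. It exceeded the threshold on 2 of the 3 arrays and was not counted as above background only because of the high-seeded culture. The muscle isoform COX6A2 gave 46.1, 107.1 and 76.6 and exceeded the threshold in the 24 h culture only, whereas its partner COX6A1 gave 27120, 25624 and 30725. The muscle isoform COX7A1 gave 20.9, 43.4 and 8.3, below the threshold on each array, and its partner COX7A2 gave 17820, 17081 and 16271.

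The 3 testis isoforms were below the threshold on each array. COX6B2 gave 14.3, 86.0 and 97.6 and came nearest to it, while its partner COX6B1 gave 12076, 11667 and 12285. COX7B2 gave 4.4, 26.5 and 4.9, beside 20140, 19696 and 21248 for COX7B. COX8C gave 7.3, 13.1 and 4.4, beside 12768, 13522 and 13336 for COX8A. Each isoform is measured by 1 probe set, and a low signal limits what that probe set detects, not the number of transcripts, and in bulk RNA fewer expressing cells cannot be told apart from less RNA per cell. Other genes of the same tissues were mostly under the threshold as well: 2 of 13 muscle markers (TNNT3 and TNNI3) and 1 of 11 testis germ cell markers (LDHC) were above background. The summed signal of the muscle markers ranged from 763.5 to 916.9 and that of the testis markers from 1070 to 1226 over the 3 arrays. COX4I2 had the highest signal at 24 h, as had 5 of the 6 isoforms in all, at signals near or under the threshold where arrays differ most.

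**Figure D3:**
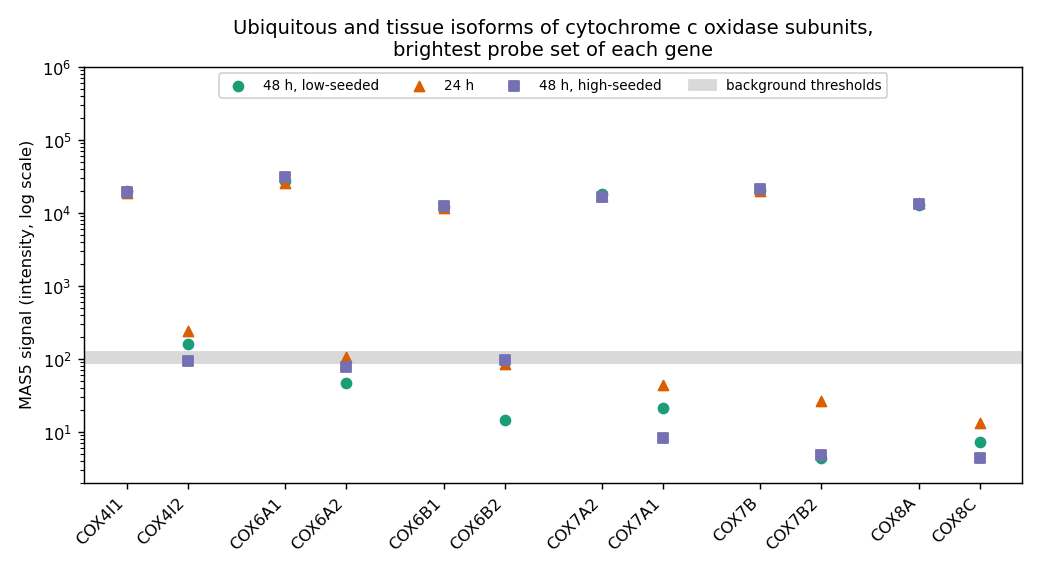
MAS5 signal (vertical log axis) of the brightest probe set of each ubiquitous cytochrome c oxidase gene and its tissue isoform, by culture (circles, low-seeded 48 h; triangles, 24 h; squares, high-seeded 48 h), with the range of thresholds in grey. The ubiquitous partners lie far above the band on every array, and of the isoforms COX4I2 and COX6A2 alone exceed their array's threshold, on 2 arrays and 1 array.

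In complex V, 17 of 18 ubiquitous genes were above background. The catalytic subunits ATP5F1A (alpha) and ATP5F1B (beta) gave 23474, 22143 and 22568, and 16630, 16049 and 16220. The c ring, which turns in the membrane as protons pass, is made of 1 mature protein encoded by 3 genes that differ in their import sequence. All 3 were above background, at 8636 ± 509 for ATP5MC1, 15790 ± 404 for ATP5MC2 and 18880 ± 1316 for ATP5MC3 (SD, n = 3 arrays). ATP5IF1, which inhibits the enzyme when it runs backwards, gave 10720, 10590 and 10832 for its brightest probe set. The probe set listed for ATP5MF alone, a membrane subunit, gave 59.8, 14.6 and 101.3, below the threshold on each array. A second probe set, listed for ATP5MF and for ARMC2-AS1, gave 17207, 16120 and 18703 and was not counted, because its gene cannot be settled from the platform table. The pseudogenes gave 249.1, 140.4 and 63.6 (ATP5MC2P1) and 8.4, 51.1 and 63.9 (COX6A1P1).

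Probe sets of the same gene did not give the same call in most cases. Of 44 ubiquitous genes with several probe sets, 20 had all of them above background. NDUFA10, for instance, had 1 of 5 above background, at 3999, 4652 and 4572, and the other 4 had mean signals from 13.6 to 88.8. Probe sets marked as possibly sharing sequence with other transcripts (the suffixes _s_at, _x_at and _a_at) were above background in 61 of 63 cases (96.8%, against 53.5% of such probe sets on the array), and the remaining ones in 56 of 91 (61.5%, against 30.7%). Without the marked probe sets 50 rather than 71 member genes were above background. Nearest to the threshold from above lay a probe set of COX4I1 (1.11 times its array's threshold at the lowest), 1 of ATP5F1C (1.13) and 1 of NDUFA2 (1.25), and from below 1 of NDUFB2 (0.94), that of COX4I2 (0.76) and 1 of UQCRC2 (0.73). Each of these genes other than COX4I2 had another probe set well above background.

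The members varied little between the 3 cultures. The SD over arrays of log2(signal + 19.5) had a median of 0.08 over the 117 members above background, against 0.14 over all 20733 probe sets above background. Among probe sets with a mean signal over 1000, the medians were 0.07 for 100 members and 0.10 for 8185 probe sets. This floor leaves out the dim probe sets but does not match the members to others of equal signal. The part of the signal level in their smaller spread was not tested. A range over the 3 arrays above 0.5 on the log2 scale was found for 8 of the 117 members (6.84%), where 19.2% of all probe sets above background had one, and for 2.0% of the members against 4.39% over a mean signal of 1000. Besides UQCRQ these 8 were probe sets of ATP5F1C, COX5A, NDUFS1, NDUFC1, ATP5PO, COX4I1 and ATP5F1E, each a dimmer probe set of a gene with a brighter and steadier one. COX4I1 shows this within 1 gene, since the steadiest of its probe sets gave 12729, 12950 and 13092 (SD 0.02 on the log2 scale) and the least steady 115.2, 120.2 and 227.3 (SD 0.49).

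The 24 h culture was set against both 48 h cultures by limma on the same scale, over the 22680 probe sets whose mean signal exceeded the mean threshold. With 1 residual degree of freedom the p-values depend on a spread pooled across probe sets, and nothing shows how far a second 24 h culture would have differed from the first. None of the 122 members tested was called at an adjusted p under 0.05, where 0.313% of all probe sets were (71, of which 54 were higher at 24 h). At an unadjusted p under 0.05 there were 17 of 122 members (13.9%, of which 9 were higher and 8 lower at 24 h), where 9.36% of all probe sets had one. Other members had too low a mean signal to be tested (32 of 154).

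The smallest adjusted p of limma among the members was 0.076, for ATP5PO, the peripheral stalk protein through which the enzyme is sensitive to oligomycin. The dimmer of its tested probe sets gave 836.1, 1521 and 1026. The 24 h culture lay above both 48 h cultures, by 0.70 on the log2 scale (SE 0.16), yet the brighter probe set of the same gene gave 23035, 22258 and 24728, a difference of -0.10. ATP5IF1 came next with 0.42 (SE 0.10, limma adjusted p = 0.0973) for a probe set at 3625, 5052 and 3897, while its other probe sets gave -0.02 and -0.22. NDUFA5, a subunit of the arm that holds the NADH site, has a single tested probe set and gave 4610, 5889 and 4542, a difference of 0.36 (SE 0.10, limma adjusted p = 0.149). NDUFA9, which stabilises the joint between the arms of complex I, was lowest at 24 h, with 6904, 5684 and 7092 and a difference of -0.30 (SE 0.10, limma adjusted p = 0.263). NDUFA11, a membrane arm subunit, gave 15052, 12585 and 16114 and a difference of -0.31 (SE 0.10). Its other tested probe set gave 13314, 12323 and 12413, a difference of only -0.06.

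The other members at the ends of the list were mostly dim. Upwards at 24 h these were COX4I2 (0.87), NDUFC1 (0.68), NDUFS1 (0.53), NDUFB8 and ATP5F1C (both 0.48) and ATP5PD (0.39). Downwards they were ATP5F1E (-0.63), COX5A (-0.46), UQCR11 (-0.42), COX4I1 (-0.38), a bright probe set of ATP5F1C (-0.27) and NDUFA7 (-0.27). ATP5F1C, the gamma subunit that turns inside the catalytic head, thus stands at both ends, with 172.9, 223.4 and 138.9 for its dimmest probe set and 23106, 19477 and 23842 for its brightest. Of 30 genes with several tested probe sets, 9 had all of them on 1 side and 21 had mixed signs. Among the latter, ATP5ME gave 6150, 8145 and 6702 for 1 probe set (0.34) and -0.22 for the other. SDHC, with 6 tested probe sets between -0.14 and 0.04, had 3 on each side.

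Over all 122 members the median log2 difference (24 h minus 48 h) was -0.05, with 72 members lower and 50 higher (59.0% lower), where the median over all probe sets tested was 0.00 (49.2% lower). By complex the medians were -0.05 (I), -0.04 (II), -0.01 (III), -0.06 (IV) and -0.03 (V). The median depends on the scaling of the arrays: after quantile normalization it was -0.01, with 63 lower and 59 higher, and after scaling to equal medians it was -0.07, with 79 lower and 43 higher. RNA integrity numbers were 9.6, 9.5 and 10.0, and their part in these differences was not tested.

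**Figure D4:**
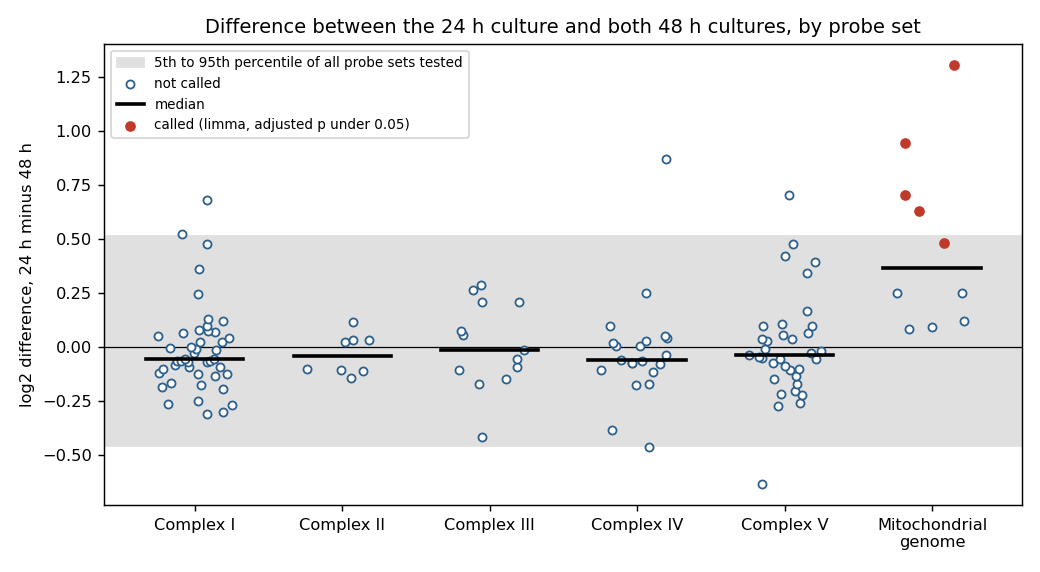
Log2 difference, 24 h minus the mean of the 48 h pair (vertical axis, log2(signal + 19.5)) of each tested probe set, by complex, with the protein genes of the mitochondrial genome beside them. Black bars are medians, filled points are called by limma, and the grey band holds the 5th to the 95th percentile of all probe sets tested (-0.45 to 0.52). No member is called and the medians of the 5 complexes lie between -0.06 and -0.01, while all 10 mitochondrial probe sets lie above 0.

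Related genes were described in the same way. The protein genes of the mitochondrial genome, which encode the partner subunits of complexes I, III, IV and V, were a list chosen with results of these arrays known. They had 10 probe sets of 7 genes (ND2, ND4, ND6, COX1, COX2, COX3 and ATP6), so the partner of complex III was not measured. All 10 probe sets were higher at 24 h, with a median of 0.37 against 0.00 over all probe sets tested. Of the 10, limma called 5, where it called 0.313% of all probe sets tested. ND6, a complex I subunit, gave 773.3, 2210 and 1005, a difference of 1.31 (SE 0.16, limma adjusted p = 0.0013). COX3 of complex IV gave 1234, 2537 and 1384, a difference of 0.95 (SE 0.13). ND4 differed by 0.71 and 0.63 and ND2 by 0.48. COX1 differed by 0.09, COX2 by 0.09 and 0.25 and ATP6 by 0.12 and 0.25, and none of these was called. The signals also differed in level. COX1 gave 40080, 43325 and 41074, and the ND4 probe set at 0.63 gave 17571, 26254 and 16294. The ATP6 probe set at 0.25 gave only 146.5, 178.7 and 147.6. The part of the signal level in these differences was not tested. In complex I the nuclear and the mitochondrial subunits thus had different values between the same cultures, with a nuclear median of -0.05, but the difference between the lists was not tested.

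The counts in this paragraph stand beside these shares over the array. Of all genes 51.1% were above background. Of all probe sets tested limma called 0.313%, and 9.36% had an unadjusted p under 0.05. Of the assembly factors of complex I, all 14 genes were above background and 0 of 20 probe sets were called by limma (1 at an unadjusted p under 0.05). Of those of complexes II to V, 32 of 34 genes were above background (not COX17 and COX19) and 1 of 56 probe sets was called. That was a probe set of LYRM7, a chaperone of the iron-sulphur subunit of complex III, at 1171, 1806 and 1027 (0.71, SE 0.14, limma adjusted p = 0.0421), while the brightest of its probe sets gave 3248, 3355 and 2824 (0.15). Of the 12 transcription regulators 11 were above background, the exception being the coactivator PPARGC1A at 67.1, 28.0 and 73.8. None of their 29 tested probe sets was called by limma (2 at an unadjusted p under 0.05). NRF1 had 4 tested probe sets, all lower at 24 h (between -0.36 and -0.18 on the log2 scale), GABPA 2 (0.05 and 0.14) and TFAM, which packages and transcribes mitochondrial DNA, 4 (between -0.01 and 0.13). Cytochrome c (CYCS), the carrier between complexes III and IV, gave 24500, 24319 and 25654 for its brightest probe set, as steady as the subunits on either side of it.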

How the data were processed

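From total RNA of 3 HEK-293T cultures the authors made biotin-labelled cRNA, which they hybridised to HG-U133 Plus 2.0 arrays. The deposited signals are MAS5 intensities (GCOS 1.0 in the submitters' processing notes) on a linear scale, and the absent/present calls of the study were not used here. Nothing states that the cultures were independent, and the number of arrays limits the precision. The spread behind the p-values comes only from the pair of 48 h cultures, pooled over probe sets. These were seeded at 375000 and 750000 cells, so this spread is not one between like replicates.

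Probe sets were matched through the platform annotation (41097 had 1 gene, 1801 had several and 11777 had none), and no member symbol needed updating. Background was called by the percentile rule given with the results, and 3 of the 333 reference probe sets were themselves above background. Signals were compared by limma 3.58.1 (R 4.3.3) with a mean-variance trend and Benjamini-Hochberg adjustment on log2(signal + 19.5), the median of the reference, which understates changes of low signals. Tables were made with pandas 2.3.3 in Python 3.11.15. The lone 24 h array is treated as varying like the others. On simulated arrays over 22680 probe sets, 68% of log2 changes of 1 and 93% of changes of 2 between 24 h and 48 h were called. With 64 false calls among 225, the fit was too liberal on the simulated arrays. The part of the 1 residual degree of freedom in this was not tested.

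Members, lists, tests and thresholds were chosen with earlier results of these data known. Genes named were the isoforms and their partners, core subunits, genes without a probe set above background, members nearest to the threshold, members with the largest and smallest differences or SDs, and called genes and regulators among related lists. The remaining names were chosen after their values were seen. A count of probe sets over a mean signal of 1000, the motif shares among genes above background and the divergent starts were added after seeing the data. A comparison of isoform protein sequences was not run.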

Additional observations from a re-analysis of the deposited data

How the results depend on the processing

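Results were recomputed under other percentiles, references, normalizations, filters and added values, and without each array in turn. Of the recomputed values, 10 moved and 59 stayed. Counts had to stay within 1.5 times the main count, and the member median within its spread over the arrays (an SD of 0.03). The median SD over arrays was held to another limit, the spread of that SD among the member probe sets. Without probe sets that may share sequence, 56 members in place of 117 were above background. Of all probe sets, 11515 in place of 20733 were. Fewer probe sets were counted, but the shares above background were lower too. They were 61.5% in place of 76.0% of members and 30.7% in place of 37.9% of all probe sets. Without probe sets that may share sequence, 39 in place of 71 probe sets were called between 24 h and 48 h. COX4I2 was above background at the 90th percentile, where 2 arrays sufficed, or without the high-seeded 48 h culture (1 of 6 isoforms in place of 0). Without the filter on low signals, limma called 1 member, ATP5PO (adjusted p = 0.0361, range over settings 0.0361 to 0.759). With equal medians 38 of all probe sets were called, and without the mean-variance trend limma called 0 (1374 at an unadjusted p under 0.05). The member median of -0.05 became -0.0054 after quantile normalization, and the cause was not tested. Leaving out 1 array gave 117 to 120 members, 71 to 73 member genes and 21026 to 22074 of all probe sets above background, 0 or 1 isoforms, a median SD of 0.06 to 0.09 and, without 1 or the other 48 h array and without a test, a member median of -0.04 to -0.03. No paired analysis was possible because there was only 1 culture at 24 h and no label links it to a 48 h culture. Low signals limit the isoforms, whose probe sets lie near or under the threshold.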

Other observations

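Probe sets listed for a respiratory chain gene together with another gene were counted in no comparison. Of these 12 probe sets 11 were above background, where 37.9% of all probe sets were. Several of the 12 stand for subunits without a probe set of their own here. The one for UQCRH, the hinge protein of complex III, and its copy UQCRHL gave 23666, 21763 and 23743 (in the order low-seeded 48 h, 24 h and high-seeded 48 h). That for NDUFC2 and its readthrough transcript with KCTD14 gave 14897, 15759 and 15598. NDUFS8, a core subunit of complex I with iron-sulphur clusters, shares its probe sets with a pair of microRNA genes, and the brightest gave 7529, 7083 and 7427. The probe set listed for NDUFS5 and the ribosomal protein gene RPL10 gave 18226, 16263 and 18343. Which of the listed genes gave each signal cannot be read from the arrays.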
